A study of Mus musculus with 72 samples.

Results

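The genes described here are 8 genes of cholesterol synthesis and its control, Hmgcs1, Idi1, Fdps, Sqle, Lss, Msmo1, Sc5d and Insig1. They were taken by symbol: every probe set whose only gene symbol in the array annotation was one of the 8 was a member, which gave 19 of 45037 probe sets and 8 of 18193 named genes. The study hybridised RNA of whole brain and whole liver from untreated male mice to 72 Affymetrix arrays, 3 for each of 24 groups of tissue, stage and strain. The strains were 129S2 (from Charles River, France), DBA/2J (D2) and C57BL/6J (B6, like D2 from The Jackson Laboratory), and the stages were E14.5, P1, P7 and P90. P90 animals, 11 to 14 weeks old, were the purchased mice themselves, and the younger stages were their offspring, so 129S2 differs from D2 and B6 by vendor as well as by strain at P90. No transgene, deletion or treatment was named for any group.

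Cells make cholesterol from acetyl-CoA in a chain of enzymes that first builds isoprenoid units, then joins them into squalene, closes squalene into lanosterol and trims lanosterol to cholesterol. When membrane cholesterol is low, the factor SREBP-2 is released from the endoplasmic reticulum by Scap and switches these genes on together, and the Insig proteins hold the complex back when sterols are high. The liver takes up cholesterol from the diet and from milk and shares it with the blood, whereas the brain makes its own behind the blood-brain barrier, with a high demand while myelin is laid down. Of the members, Hmgcs1 makes HMG-CoA, Idi1 and Fdps act on the isoprenoid units, Sqle and Lss oxidise and close squalene, Msmo1 and Sc5d act on the sterol, and Insig1 is the brake on SREBP processing and itself an SREBP target.

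Because the members moved together in liver, their promoters were set side by side. RefSeq (GRCm38.p6) entries were matched for 6 of the 8 genes, and 3 of them are shown, 250 bases up to the start of the gene, in the direction of the gene. Hmgcs1 (chr13:119690101-119690350, + strand) stands for the first step, Sc5d (chr9:42264301-42264550, - strand) for the last enzyme of the group and Insig1 (chr5:28071162-28071411, + strand) for the brake. Capitals mark TCACNCCAC, a sterol-response-element-like motif, and CCAAT, the box of the factor NF-Y, on either strand, so that ATTGG is CCAAT on the other strand.
Hmgcs1: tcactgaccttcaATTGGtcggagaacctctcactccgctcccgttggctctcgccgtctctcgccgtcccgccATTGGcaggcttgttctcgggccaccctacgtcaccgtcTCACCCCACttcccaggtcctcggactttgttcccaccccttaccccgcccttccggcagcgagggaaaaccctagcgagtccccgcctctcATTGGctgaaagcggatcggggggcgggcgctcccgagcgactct
Sc5d: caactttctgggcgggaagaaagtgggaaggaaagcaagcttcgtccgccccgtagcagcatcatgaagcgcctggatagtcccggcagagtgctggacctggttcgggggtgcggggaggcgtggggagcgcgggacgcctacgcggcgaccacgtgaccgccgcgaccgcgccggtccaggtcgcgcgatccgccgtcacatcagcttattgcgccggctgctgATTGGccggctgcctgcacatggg
Insig1: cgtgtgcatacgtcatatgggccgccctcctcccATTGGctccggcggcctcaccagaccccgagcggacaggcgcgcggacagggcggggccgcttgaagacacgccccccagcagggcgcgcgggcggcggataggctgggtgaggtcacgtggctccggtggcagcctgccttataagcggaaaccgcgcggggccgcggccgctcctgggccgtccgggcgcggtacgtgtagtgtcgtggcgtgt
The motif TCACNCCAC was found in 1 of the 6 member promoters, as TCACCCCAC beginning 137 bases before the start of Hmgcs1, and in 1.05% of 32851 mouse promoters of the same length. CCAAT was found in 6 of 6, once each in Lss, Sc5d and Insig1, at 2 places in Idi1 and at 3 each in Hmgcs1 and Msmo1, and in 33.8% of all promoters. A looser form, TCACNCNAC, was found in 1 of the 6 and in 2.26% of all. No match of one motif overlapped a match of the other in these windows, and a match is a string of letters, not a site of binding.

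The values were the authors' log2 RMA signals, and the array medians ran from 5.03 to 7.30. Each tissue and stage had been normalized apart as a set of 9 arrays, so strains were tested within a set and stages and tissues were compared by size alone. Poly-A spike controls (24 probe sets) had a median of 6.64 in P90 brain and 7.54 in P90 liver, against 4.34 to 4.84 in the 6 younger sets, so stage and labelling run cannot be told apart at P90. The tissue labels fitted their markers: over 5 hepatocyte genes the mean level above the set median was 0.80 to 3.04 in brain and 6.71 to 9.37 in liver, and over 6 neuronal genes it was 3.27 to 6.07 in brain and -1.10 to -0.67 in liver. In whole tissue, fewer cells of a type and less RNA per cell cannot be told apart. One array stood apart for the members, B6 P1 liver replicate 1, in which they averaged -1.46 log2 units from the mean of their set. In 129S2 P90 brain replicate 2, 8 of 8 members lay below the mean of their set, averaging -0.15. Other arrays shared this, among them every D2 array of P7 liver, and D2 P90 brain replicate 3 averaged -0.17. Counts that were another number without B6 P1 liver replicate 1 or without 129S2 P90 brain replicate 2 are given both ways. With 3 arrays a group, and nothing in the labels on whether they came from separate litters, p-values measure the spread between these samples.

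The first comparison followed the members over development in each tissue. In brain no member differed 2-fold in all strains between neighbouring stages up to P7. With 1 probe set per gene and after quantile normalization of the 36 arrays of a tissue, the P90 level was the lowest of the 4 stages in brain for 6 of 8 genes (8 of 8 as deposited). In liver on the same scale the level was lowest at P7 for 6 of 8 genes and highest at P90 for 8 of 8, and after centring arrays on their median these counts were 6 and 8 too. As deposited, it was lowest at P7 for 7 of 8, and highest at P90 for 4 and at E14.5 for the other 4, namely Hmgcs1, Idi1, Sqle and Lss. Over all 19 member probe sets, after quantile normalization, 13 were lowest at P7 in liver and 15 highest at P90. These counts of lowest and highest stages have no share of all genes beside them. As deposited, the median of all probe sets was itself lower in P90 brain (6.42) than in the younger brain sets (7.15 to 7.28). Idi1 (1451122_at), the isomerase that makes both isoprenoid units available, shows both courses. On the scale of quantile normalized values of 1 tissue, its E14.5 brain arrays ran from 10.35 to 10.76 with a median of 10.55, those of P1 from 10.40 to 11.08 (median 10.84), those of P7 from 10.67 to 10.93 (median 10.75) and those of P90 from 9.39 to 9.67 (median 9.54), with 9 arrays a stage. The E14.5 liver arrays ran from 11.26 to 11.53 (median 11.38), those of P1 from 8.19 to 11.41 (median 11.26), those of P7 from 7.50 to 10.36 (median 8.24) and those of P90 from 11.33 to 12.17 (median 11.83). All 9 brain arrays at P90 lay below every younger brain array, and the liver arrays at P7 were both low and widely spread.

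**Figure D1:**
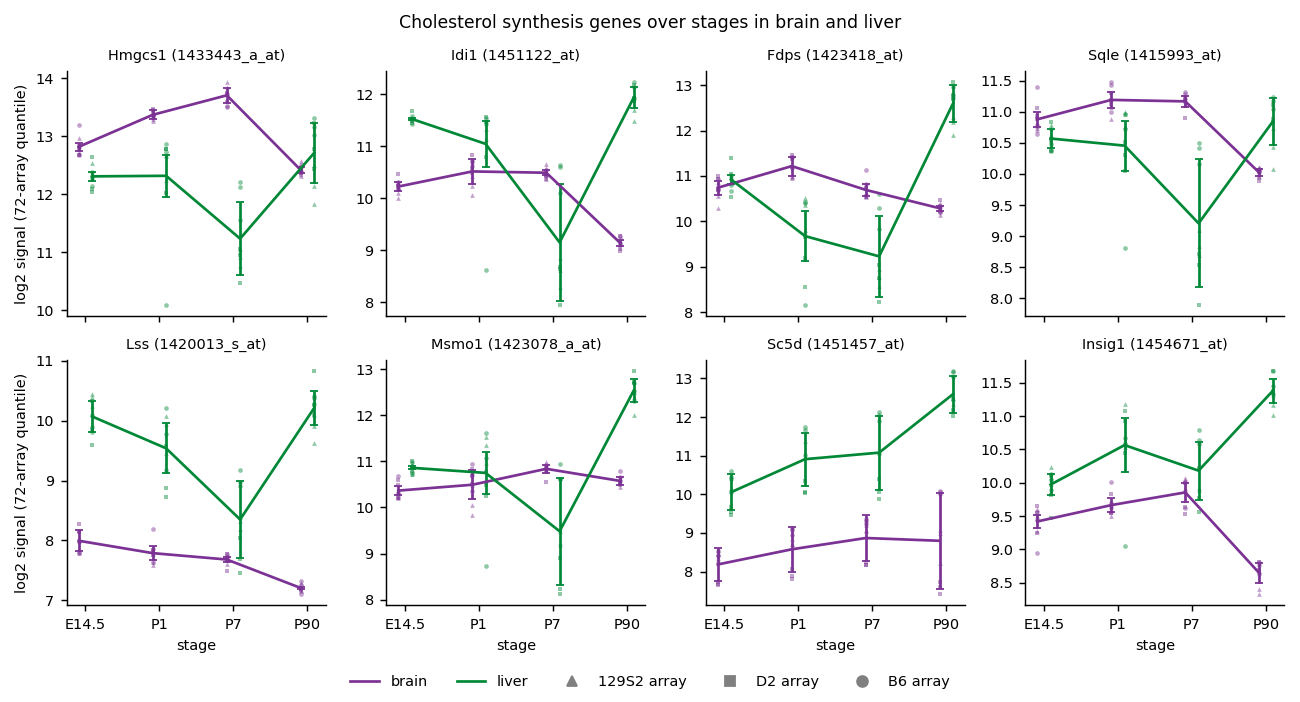
Level of each member by stage in brain (purple) and liver (green), on the scale of log2 signals quantile normalized over 72 arrays, with 1 representative probe set per gene. Small symbols are arrays, lines join means of 3 strain means and bars are ± SD over the 3 strains. In liver at P7 the bars are wide because the 3 B6 arrays lie above the others, and the single low B6 array at P1 is replicate 1.

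Between neighbouring stages, a probe set was counted when it differed at least 2-fold, and the same way, within every one of the 3 strains. No test was made, since stages had been normalized apart. Counts are over the 16 or 17 of the 19 member probe sets whose highest strain mean at either stage exceeded the median of all values, a filter that the strain tests applied within a set. No member was counted in brain for P1 minus E14.5 (0 of 16, where 4.21% of all probe sets were higher and 3.7% lower) or for P7 minus P1 (0 of 16, with 1.19% higher and 0.383% lower in all). For P90 minus P7 in brain, 6 of 16 were lower and 0 higher, against 8.92% lower and 10.4% higher in all. The median difference of the members was -1.07, against -0.03 over all probe sets. In place of 6, the count in either direction was 4 after median centring, 8 after quantile normalization of 72 arrays and 10 as deposited.

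The 6 belonged to the first steps and to Lss. Idi1 was at -1.66 ± 0.12 (1423804_a_at) and -1.24 ± 0.07 (1451122_at; P90 minus P7 log2 difference, mean ± SD over 3 strains). Hmgcs1, which makes the substrate of the pathway's rate-limiting reductase, was at -1.20, -1.44 and -1.46 on 3 probe sets, and -1.12 ± 0.12 on a further one (1433443_a_at) missed the minimum in B6 alone. Lss, the cyclase that forms lanosterol, was at -1.25 ± 0.11 on 1426913_at and -0.49 ± 0.03 on 1420013_s_at. Sqle, the oxygenase before it, was at -1.02 ± 0.05 and Insig1 at -1.13 ± 0.27, each short of 2-fold in 1 strain. On 1451457_at, Sc5d was at -0.33 in 129S2, -0.61 in D2 and 0.69 in B6. The late enzymes Msmo1 (-0.23 ± 0.08) and Sc5d on 1434520_at (-0.26 ± 0.10), and Fdps (-0.36 ± 0.15), differed less. With 1 probe set per gene the count was 1. Of 12 other enzymes of the pathway 1 was lower, Mvd (-1.20), and 0 were higher, with a median of -0.47.

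The same interval held the change in cell types of the brain. Of 5 oligodendrocyte genes with a probe set, 4 were at least 2-fold higher at P90 than at P7, with a median difference of 2.48, and 5 of 5 genes of cycling cells were lower, with a median of -2.63. Of 6 astrocyte genes 1 was higher, with a median of -0.04. Of 6 neuronal genes 2 were higher and 0 lower (median 0.84). Of 4 hepatocyte genes that passed the filter in brain, 2 were lower and 0 higher (median -1.44). The part of these markers in the members' difference was not tested. Over the whole course, P90 minus E14.5, 1 of 16 member probe sets was lower in brain and 0 higher, against 15.7% and 16.7% of all. It was Idi1 on 1423804_a_at, at -1.38 ± 0.06.

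The liver course was different. For P1 minus E14.5, 0 of 17 were counted (7.86% of all higher, 5.89% lower), and for P7 minus P1, 0 of 16 were higher and 1 lower, where 1.2% and 0.708% of all were. The 1 was Lss on 1426913_at, at -1.97 ± 0.58. The other values between P1 and P7 depended on the strain: Idi1 (1423804_a_at) was at -3.02 in 129S2, -3.12 in D2 and -0.10 in B6, and Msmo1, an oxygenase that helps to remove methyl groups from the sterol, at -2.18, -2.23 and 0.26 in the same order. Sqle was at -2.21 in 129S2, -2.03 in D2 and 0.19 in B6. The B6 values rest in part on P1 replicate 1: without that array 5 probe sets were lower in place of 1.

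At P90 most members were higher in liver than at P7 in every strain. Of 16 probe sets, 12 were at least 2-fold higher and 0 lower, against 9.89% higher and 10.1% lower in all, and the median difference was 1.72, against 0.02 over all. The farnesyl diphosphate synthase gene Fdps was at 3.72 ± 0.86, Msmo1 at 3.37 ± 1.40, and Idi1 at 3.06 ± 1.07 and 2.91 ± 1.09. Sc5d, the desaturase that introduces the ring double bond late in the pathway, was at 2.40 ± 0.71 and 1.70 ± 0.59 on 1434520_at and 1451457_at and between 1.32 and 1.77 in the 3 strains on 1424709_at, Lss at 1.98 on 1420013_s_at and Hmgcs1 between 1.44 and 1.74 on 4 probe sets. Sqle (1.77 ± 0.94) and Insig1 (1.33 ± 0.44) missed the minimum in B6. The difference was largest in D2 for each of the 8 representative probe sets, such as Fdps with 3.70 in 129S2, 4.59 in D2 and 2.87 in B6. Of the 12 other pathway enzymes with a probe set, 7 were higher too, led by the lanosterol demethylase gene Cyp51 (2.80), the kinase gene Pmvk (2.14) and the decarboxylase gene Mvd (2.11), and 1 was lower, Lbr (-2.39), a sterol reductase that is also part of the nuclear envelope.

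How far this step reaches depends on the scale, since P90 liver had the lowest array medians. As deposited, the median of all probe sets was itself at -1.16 between P7 and P90, the members at 1.02, and 4 members were higher and 1 lower. After centring each array on its median, the median of all was 0.29, the members were at 2.36, and 14 were higher and 0 lower. Relative to the median of all, the members were at 1.70 after quantile normalization, 2.19 as deposited and 2.07 after centring. In the same interval 5 of 5 genes of cycling cells were lower in liver (median -4.61) and 3 of 5 erythroid genes (median -6.17), while 0 of 5 hepatocyte genes changed by the same rule (median -0.13). For P90 minus E14.5 in liver, 6 of 17 members were higher and 1 lower, where 17.8% and 18.4% of all were, and as deposited 2 were higher and 3 lower. The 6 were the 3 Sc5d probe sets (2.84, 3.22 and 2.02), Fdps (1.88), Msmo1 (1.87) and Insig1 (1.56), and the 1 was the weak Hmgcs1 probe set 1441536_at (-1.72).

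Brain and liver were then set against each other at each stage, after quantile normalization of all 72 arrays. The median difference of the members changed sign between P7 and P90. At E14.5, 0 of 17 members were higher in brain and 5 lower (17.8% and 15.6% of all), and at P1, 0 of 16 were higher and 3 lower (20% and 17.7% of all). At P7, 5 of 17 were higher in brain and 1 lower, against 20.8% and 19.1% of all, and the median brain minus liver difference was 1.34, against -0.09 over all. At P90, 0 of 16 were higher and 9 lower, against 23.1% and 20.9% of all, with a median of -2.09 against -0.14. As deposited, 1 member was higher in brain and 2 lower at E14.5, 2 higher and 1 lower at P1, 8 higher and 1 lower at P7, and 0 higher and 7 lower at P90, and after median centring 2 were higher and 1 lower at P7.

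Strain means show what the tissue difference at P7 consisted of. Hmgcs1 averaged 13.84 in 129S2, 13.69 in D2 and 13.58 in B6 brain at P7, against 10.92, 10.83 and 11.96 in liver of the same strains. Idi1 averaged 10.54, 10.45 and 10.48 in brain, against 8.59, 8.42 and 10.45 in liver. The tissues were thus apart in all 3 strains for Hmgcs1 (2.47 ± 0.74), whereas for Idi1 the brain minus liver difference was 1.95 in 129S2, 2.03 in D2 and 0.04 in B6. Msmo1 had 1.60, 2.33 and 0.14 in the same order, and Sqle 2.26, 2.72 and 0.91. At P90 the spread over strains differed between genes. Insig1 was at -2.73 ± 0.03, Idi1 at -2.79 ± 0.17, Fdps at -2.31 ± 0.40 and Msmo1 at -1.96 ± 0.28, all below 0 in each strain. Hmgcs1 was at 0.28 in 129S2, -0.45 in D2 and -0.71 in B6, so its sign was not the same in all strains, and Sc5d on 1451457_at was at -3.68, -4.64 and -3.08 in the same order.

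Some members kept one side. Insig1 was lower in brain at all 4 stages, with -0.90 at P1 and -2.73 at P90, though by little in 129S2 at P7. Sc5d on 1451457_at was lower in brain at all 4 stages, with differences of -1.87, -2.33, -2.21 and -3.80 from E14.5 to P90, and Lss on 1420013_s_at was at -2.08, -1.75, -0.67 and -3.01. The probe sets of Sc5d and of Lss did not run alike, since Lss on 1426913_at was 2.19 ± 0.69 higher in brain at P7. Over 24 group means this probe set had a Pearson correlation of 0.04 with 1420013_s_at, and Sc5d on 1434520_at and 1424709_at had 0.55 and 0.75 with 1451457_at. The probe sets of Hmgcs1 at high signal had 0.94 to 0.97 with each other's representative, and those of Idi1 0.98.

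The strain comparisons asked whether the members differ between genomes within a stage. The largest set of differences was in P7 liver, where B6 stood above both other strains. Of 16 member probe sets tested, 14 were lower in D2 than in B6 and 0 higher, against 4.1% called in either direction among all probe sets, at an adjusted p below 0.05 and at least 1.5-fold by limma. Between 129S2 and B6, 13 of 16 were lower and 0 higher, against 4.41% of all. The median differences were -1.32 for D2 minus B6 and -1.16 for 129S2 minus B6, where the medians over all probe sets were -1e-04 and 0.03. These contrasts share the B6 arrays. By gene, 8 of 8 had at least 1 probe set called lower in D2 than in B6, and 8 of 8 had one called lower in 129S2. These counts by gene have no share of all genes beside them, and a gene with several probe sets has more chances of a call.

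**Figure D2:**
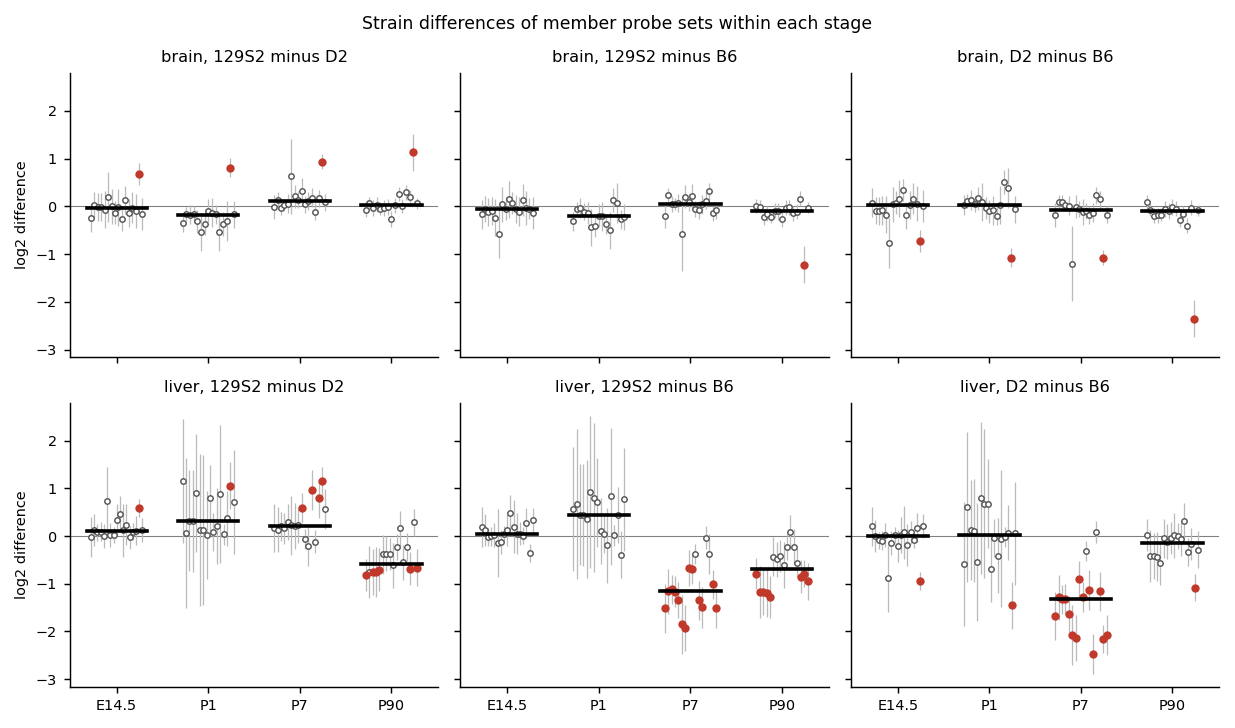
Strain differences of the member probe sets within each stage (log2, as deposited), for brain in the upper row and liver in the lower. Points are probe sets with 95% intervals, filled red where called by limma, and the black bar is the median. Brain has at most 1 called probe set at a stage, that of Sc5d, and the liver medians lie near -1.32 and -1.16 at P7 against B6.

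The start of the pathway gave the following values. Hmgcs1 (1433443_a_at) had 10.94, 10.76 and 10.65 in 129S2, 10.25, 10.87 and 10.83 in D2, and 12.18, 11.51 and 12.12 in B6. Idi1 (1451122_at) had 8.32, 8.55 and 8.03 in 129S2, 7.65, 8.29 and 8.32 in D2, and 10.39, 9.89 and 10.38 in B6. For both genes the B6 arrays stood clear of the other 6, which overlapped among themselves. Idi1 was lower, at -2.13 ± 0.21 in D2 (log2 difference ± SE, adjusted p = 0.000419) and -1.92 ± 0.21 in 129S2 (adjusted p = 0.000799), and Hmgcs1 was at -1.28 ± 0.21 in D2 and -1.16 ± 0.21 in 129S2, both called. Fdps, with 8.49, 8.65 and 8.34 in 129S2, 7.90, 8.66 and 8.44 in D2 and 10.37, 9.59 and 10.07 in B6, was lower, at -1.68 ± 0.23 in D2 and -1.52 ± 0.23 in 129S2.

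Squalene and sterol steps were lower too. Sqle had 8.55, 8.81 and 8.46 in 129S2, 7.59, 8.33 and 8.20 in D2, and 10.14, 9.94 and 10.27 in B6, and was lower, at -2.08 ± 0.19 in D2 (adjusted p = 0.000215) and -1.51 ± 0.19 in 129S2. Msmo1 had 8.91, 9.21 and 9.02 in 129S2, 7.80, 8.52 and 7.90 in D2, and 10.38, 10.46 and 10.78 in B6. Its D2 arrays were the lowest, its B6 arrays the highest, and the 3 strains did not overlap. D2 minus B6 was -2.47 ± 0.19 (adjusted p = 7.1e-05), a 5.52-fold difference, and 129S2 minus B6 was -1.49 ± 0.19. Sc5d (1451457_at) had 11.03, 10.97 and 11.00 in 129S2, 9.60, 10.14 and 9.83 in D2, and from 11.87 to 12.16 in B6, again in 3 separate ranges.

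Lss and Insig1 had smaller differences. Lss (1420013_s_at) was lower than in B6, at -1.28 ± 0.14 in D2 and -0.69 ± 0.14 in 129S2. Insig1 had 9.67, 10.04 and 9.70 in 129S2, 9.28, 9.93 and 9.51 in D2, and 10.34, 10.48 and 10.59 in B6, so that the B6 arrays lay highest and the other 6 overlapped. It was lower, at -0.90 ± 0.17 in D2 (adjusted p = 0.0123) and -0.67 ± 0.17 in 129S2 (adjusted p = 0.0398). The 129S2 call of Insig1 was lost without 129S2 replicate 1 or 3, B6 replicate 1, 2 or 3 or D2 replicate 3 (adjusted p from 0.0592 to 0.138), its D2 call without B6 replicate 3 or D2 replicate 3 (0.0548 and 0.0513), and the 129S2 call of Lss without 129S2 replicate 1 or 3 or B6 replicate 3 (0.0542 to 0.0734). Not called in either contrast were Sc5d on 1424709_at (0.08 in D2, -0.03 in 129S2) and Lss on 1420014_at (-0.31 and -0.38), and Sc5d on 1434520_at was called in D2 alone (129S2 minus B6 -0.37, adjusted p = 0.284).

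**Figure D3:**
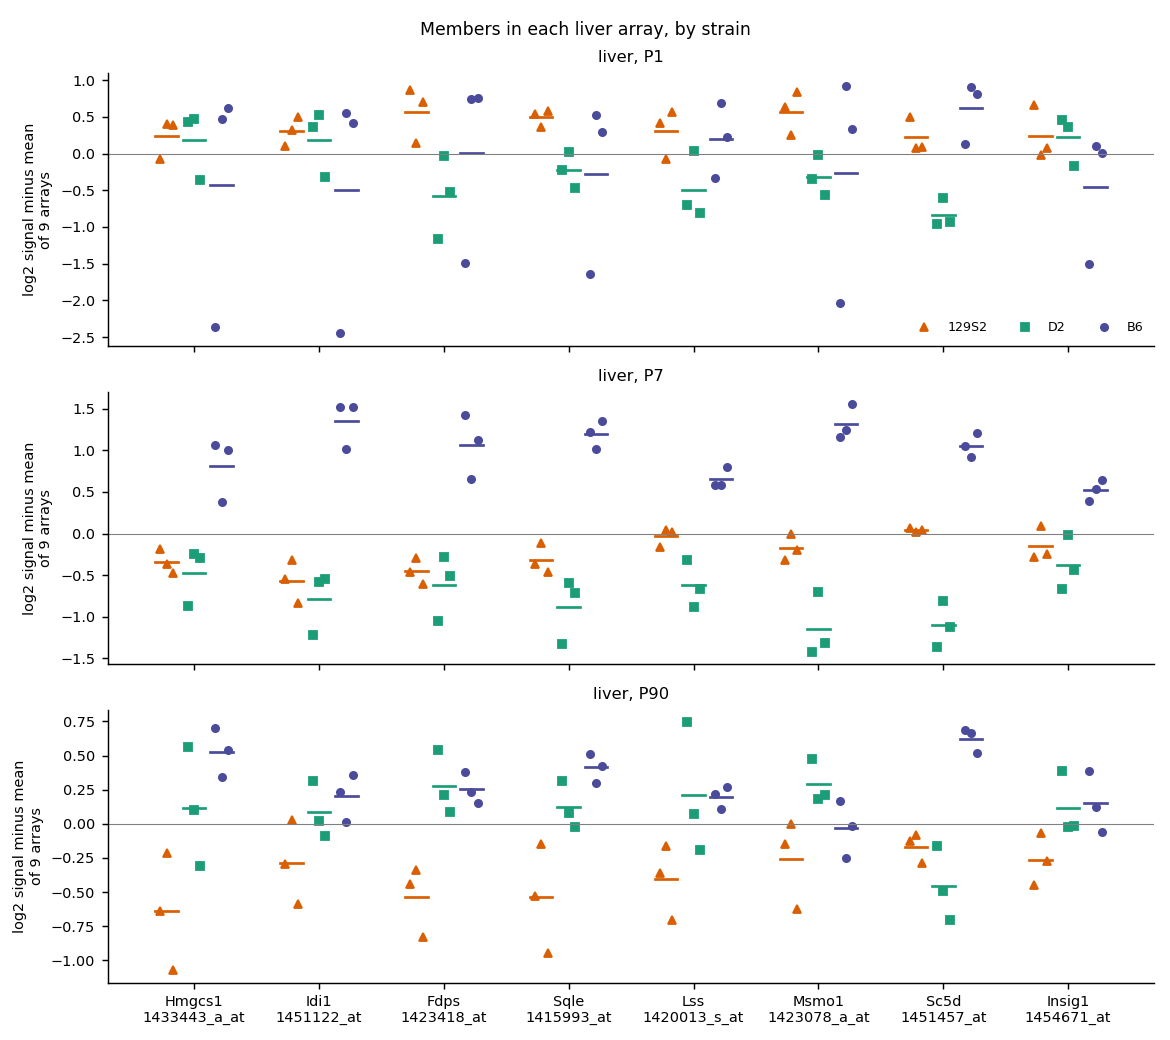
Each member in each liver array at P1, P7 and P90 as log2 signal minus the mean of the 9 arrays of the set, with 129S2 (triangles), D2 (squares) and B6 (circles) side by side and a bar at each strain mean. At P7 the 3 B6 arrays are the highest for all 8 genes, an order that is not set against all genes here. At P1 B6 replicate 1 is the low circle, 2.45 below the mean for Idi1.

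Between 129S2 and D2 at P7, 4 of 16 probe sets were higher in 129S2 and 0 lower, against 5.65% of all. They were Sc5d on 1451457_at (1.14 ± 0.13) and on 1434520_at (0.79 ± 0.18), Msmo1 (0.97 ± 0.19) and Lss on 1420013_s_at (0.59 ± 0.14). The count was 2 without 129S2 replicate 2, without 129S2 replicate 3 or without D2 replicate 3. The first steps Hmgcs1, Idi1 and Fdps differed by 0.13 ± 0.21, 0.21 ± 0.21 and 0.16 ± 0.23, within their error.

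Other genes of the pathway at P7 were read from a list of 15 enzymes, of which 12 had a probe set here. In D2, 7 of 12 were lower than in B6 and 0 higher, with a median of -0.65. Cyp51 had 7.37, 7.58 and 7.31 in 129S2, 6.62, 7.01 and 7.19 in D2, and 9.14, 9.01 and 9.16 in B6, and was lower, at -2.16 ± 0.14 in D2 and -1.68 ± 0.14 in 129S2. The remaining 6 were the last reductase Dhcr7 (-1.03), Nsdhl (-0.92), Mvd (-0.81), Pmvk (-0.77), Tm7sf2 (-0.71) and Lbr (-0.59). In 129S2, 3 of 12 were lower than in B6 (Cyp51, Nsdhl at -0.86 and Mvd at -0.68) and 0 higher, with a median of -0.39, and none of the 12 was called between 129S2 and D2 by limma.

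Genes outside the enzymes were read in P7 liver by the same lists. Of 11 measured genes of SREBP control and sterol uptake, 1 was higher in D2 than in B6, Insig2 (0.73 ± 0.18), a second brake that SREBP does not induce, and 0 were called between 129S2 and B6 (median 0.27). Of 10 fatty acid genes that SREBP-1 drives, 1 was higher in D2 (Pnpla3, 0.83) and 2 in 129S2 (Pnpla3 at 1.17 and the desaturase Scd1 at 0.59) than in B6, and 0 were lower. No hepatocyte gene of 5 was called between strains, and their mean level above the set median was 8.21 to 8.28 in 129S2, 8.27 to 8.31 in D2 and 8.17 to 8.24 in B6 arrays. Over 5 erythroid genes it was 3.44 to 3.54 in 129S2, 2.26 to 3.74 in D2 and 3.19 to 4.47 in B6, with 0 called and a median D2 minus B6 difference of -1.06. Kupffer cell genes lay at 3.90 to 4.04 in 129S2, 4.43 to 4.69 in D2 and 4.46 to 4.56 in B6, with 3 of 5 lower in 129S2 than in B6 and 1 of 5 higher in D2, where the largest differences were Cd163 (1.34 in D2) and Marco (-1.13 in 129S2). The 5 fasting genes lay at 2.74 to 3.38 in 129S2, 3.04 to 3.50 in D2 and 3.11 to 3.39 in B6. Of them Pdk4 was lower in 129S2 than in B6 (-0.64) and than in D2 (-0.89), Angptl4 was lower in 129S2 than in D2 (-0.77), and 0 of 5 were called between D2 and B6 by limma. The part of these cells and states in the members' difference was not tested.

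In P90 liver the strains stood in another order, with 129S2 below D2 and B6. Of 16 probe sets, 8 were lower in 129S2 than in B6 and 0 higher, against 8.74% of all, while relative to D2 there were 6 lower and 0 higher, against 7.15% of all. Between D2 and B6, 1 was lower and 0 higher, against 5.65% of all. The median differences were -0.70, -0.58 and -0.14, where the medians over all probe sets were 0.0106, 0.0013 and 0.0051.

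Hmgcs1 (1433443_a_at) had 11.59, 12.02 and 11.16 in 129S2, 12.79, 12.33 and 11.93 in D2, and 12.93, 12.58 and 12.77 in B6. The 129S2 arrays lay below the B6 arrays, and D2 overlapped with both. On the 4 of its 5 probe sets that passed the filter, Hmgcs1 was lower in 129S2 than in B6. The differences lay between -1.28 and -1.17 (limma, adjusted p from 0.00129 to 0.0064). Sqle had 9.36, 9.74 and 8.94 in 129S2, 10.20, 9.96 and 9.86 in D2, and 10.40, 10.19 and 10.31 in B6, and was lower in 129S2, at -0.95 ± 0.17 against B6 and -0.66 ± 0.17 against D2. Fdps had 11.67, 11.77 and 11.27 in 129S2, 12.65, 12.31 and 12.19 in D2, and 12.48, 12.34 and 12.26 in B6, so that 129S2 was below both (-0.79 ± 0.15 against B6, -0.82 ± 0.15 against D2) and D2 and B6 overlapped.

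Sc5d was lower in 129S2 than in B6 on 1434520_at (-0.85 ± 0.15) and 1451457_at (-0.79 ± 0.13), while 1424709_at (-0.56 ± 0.13) was under the fold minimum. The other members were not called against B6. Idi1 had 11.01, 11.32 and 10.71 in 129S2, 11.62, 11.32 and 11.21 in D2, and 11.54, 11.31 and 11.66 in B6, overlapping ranges with a 129S2 minus B6 difference of -0.49 ± 0.16 (adjusted p = 0.0527). Lss (1420013_s_at) was at -0.61 ± 0.21, Insig1 at -0.41 ± 0.15 and Msmo1 at -0.22 ± 0.16. Of the 6 calls between 129S2 and D2, that of Fdps was kept whichever array was left out, and the others were each lost without some array. There were 2 left without 129S2 replicate 1, 1 without 129S2 replicate 3, 2 without D2 replicate 1 and 2 without D2 replicate 2. Hmgcs1 on 1433444_at and 1433445_x_at was also lost without any single B6 array (limma, adjusted p from 0.0502 to 0.0679). The 1 call between D2 and B6 was Sc5d on 1451457_at (2 calls without D2 replicate 1).

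**Figure D4:**
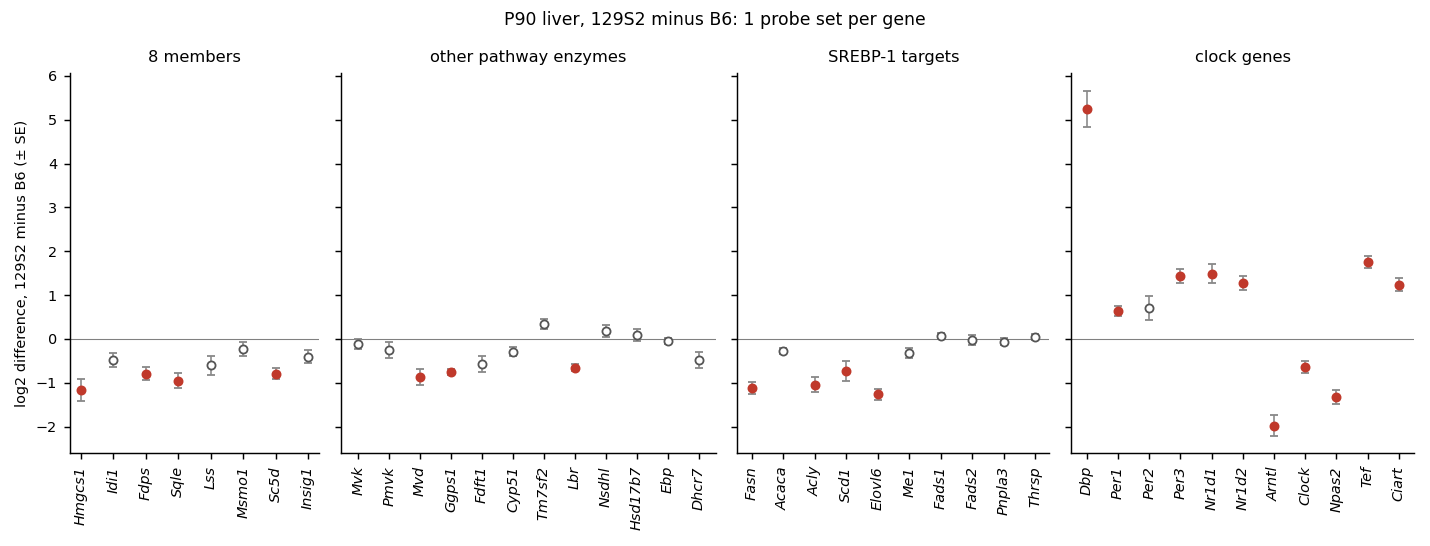
P90 liver, 129S2 minus B6 difference (log2 ± SE) for the 8 members, the other pathway enzymes, the fatty acid targets of SREBP-1 and clock genes, 1 probe set per gene, filled red where called by limma. Of the members 4 of 8 are red and below 0, and the clock genes lie on both sides, up to 5.25 for Dbp.

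The lists around the members moved as follows in P90 liver. Of 12 other pathway enzymes 3 were lower in 129S2 than in B6, Mvd (-0.87 ± 0.18), Ggps1 (-0.76 ± 0.08) and Lbr (-0.66 ± 0.08), and Cyp51 was not called. Of 10 SREBP-1 targets 4 were lower, the elongase gene Elovl6 (-1.27 ± 0.12), the fatty acid synthase gene Fasn (-1.11 ± 0.14), Acly (-1.05 ± 0.17) and Scd1 (-0.73 ± 0.22). The gene of SREBP-1 itself, Srebf1, was higher in 129S2 (0.65 ± 0.20) and in D2 (1.02 ± 0.20) than in B6, and so was the lysosomal cholesterol transporter gene Npc1 in 129S2 (0.86 ± 0.14). Clock genes, which follow the time of day, were apart as well. Of 11, 7 were higher and 3 lower in 129S2 than in B6, and the same counts held against D2, while 0 were called between D2 and B6. The output gene Dbp had 11.72, 11.56 and 10.14 in 129S2, 6.66, 6.79 and 6.41 in D2, and 6.05, 6.44 and 5.18 in B6, and Arntl, which peaks in the opposite phase, had 5.54, 5.53 and 6.60 in 129S2, 8.14, 8.15 and 8.15 in D2, and 7.93, 7.70 and 7.97 in B6. In P7 liver 1 of 10 clock genes was called between 129S2 and B6 (Per3, 0.80). All 5 Kupffer cell genes were lower in 129S2 than in B6 at P90 (mean level 2.90 to 2.98 against 3.42 to 4.03), 3 of 5 were lower in D2 than in B6 (Marco at -1.11, Clec4f at -0.87 and Cd5l at -0.80), and 0 were called between 129S2 and D2. The part of the hour of collection or of the cell types in the members' difference was not tested.

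In younger liver few members were called. At E14.5, 0 of 17 were called between 129S2 and B6 by limma (3.7% of all). At an unadjusted p below 0.05 there were 3 of 17, against 5333 of 23439 over all. Of 17, 1 was lower in D2 than in B6 (4.86% of all) and 1 was higher in 129S2 than in D2 (2.84% of all). At P1, 0 of 16 were called between 129S2 and B6 (2.36% of all). At an unadjusted p below 0.05 there were 0 of 16, against 3445 of 23802 over all. Of 16, 1 was lower in D2 than in B6 (8.26% of all) and 1 was higher in 129S2 than in D2 (6.89% of all). Each of these calls was Sc5d on 1451457_at. The Sc5d call between 129S2 and D2 at E14.5 was lost without 129S2 replicate 2 or 3 or D2 replicate 2 or 3, as the difference then was under 1.5-fold, and 2 members were called without D2 replicate 1, that at P1 without 129S2 replicate 1 or D2 replicate 1, and without D2 replicate 2 there were 2 calls between D2 and B6 at E14.5. With the replicate number as a block there were also 2, the second being the weak Hmgcs1 probe set 1441536_at (-0.89, adjusted p = 0.0352, against 0.111 without the block).

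The P1 values hang on B6 replicate 1. Idi1 was 8.51 in that array, against 11.51 and 11.38 in the other B6 arrays, Hmgcs1 9.98 against 12.81 and 12.97, Msmo1 8.61 against 11.57 and 10.98, and Sqle 8.69 against 10.85 and 10.62. Insig1 was 8.94, against 10.54 and 10.45. The array was thus the lowest of the 3 for each of these genes, and Cyp51 went with them (7.28 against 10.22 and 10.10). Sc5d (10.94 against 11.72 and 11.62) and Lss (9.06 against 10.07 and 9.62) were also lowest there, by less. The 5 fasting genes averaged 1.19 above the mean of the set in this array and between -0.68 and 0.31 in the other 8, and its 5 hepatocyte genes were 0.01 from the mean. Without it, 4 of the members were lower in D2 than in B6, Fdps (-1.33), Hmgcs1 on 1433446_at (-1.34), Sqle (-0.63) and Sc5d on 1451457_at (-1.70), and 5 were higher in 129S2 than in D2. The shares of all probe sets given for P1 liver are of the fit with this array, so these counts have no share beside them.

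In brain the strain calls fell on 1 member, Sc5d, and on 1 of its 3 probe sets. At each stage 1 probe set was lower in D2 than in B6 (of 16, 15, 16 and 15 tested in order of stage, where 2.9%, 1.9%, 2.2% and 3.57% of all were called), and 1 was higher in 129S2 than in D2 (1.7%, 1.94%, 1.92% and 2.76% of all). Between 129S2 and B6 none was called at E14.5, P1 or P7 by limma (1.88%, 1.86% and 2.08% of all), and 1 was lower at P90 (2.92% of all). At an unadjusted p below 0.05 there were 1, 6 and 2 members at E14.5, P1 and P7. Over all probe sets there were 2940 of 23584, 2428 of 23351 and 3700 of 23388. At P1 the median 129S2 minus B6 difference was -0.21, with 2 of 15 probe sets above 0. The median 129S2 minus D2 difference at P1 was -0.17, with 1 of 15 above 0. In that contrast 8 of 15 were at an unadjusted p below 0.05, against 2984 of 23351 over all. At E14.5, P7 and P90 it held 2, 2 and 5 such members. A second member probe set was called for D2 minus B6 without 129S2 replicate 3 at E14.5 and without D2 replicate 2 at P7. With the replicate number as a block the Hmgcs1 probe set 1441536_at was called for D2 minus B6 at P7 too (-1.20, adjusted p = 0.00528, against 0.127 without the block).

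Sc5d on 1451457_at had these values in brain. At E14.5 it was 9.23, 9.01 and 8.98 in 129S2, 8.36, 8.48 and 8.34 in D2, and 9.05, 9.20 and 9.11 in B6. At P7 it was 9.67, 9.84 and 9.67 in 129S2, 8.76, 8.76 and 8.86 in D2, and 9.88, 9.93 and 9.81 in B6. At both stages D2 lay below the other strains with no overlap, and so it did at P1. At P90 it was 8.93, 8.20 and 8.90 in 129S2, 7.71, 7.55 and 7.37 in D2, and 9.93, 9.85 and 9.92 in B6, which put the 3 strains in 3 separate ranges.

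The D2 minus B6 difference of this probe set in brain was -0.73 ± 0.10, -1.08 ± 0.09, -1.08 ± 0.07 and -2.36 ± 0.17 from E14.5 to P90 (limma, adjusted p from 1.4e-05 to 0.00434). In liver it was -0.94 ± 0.08, -1.45 ± 0.22, -2.16 ± 0.13 and -1.08 ± 0.13 at the same stages. It was thus negative in 8 of 8 sets and called in each. 129S2 minus B6 in P90 brain was -1.22, and -0.98 without 129S2 replicate 2. The other probe sets of Sc5d did not share the D2 minus B6 difference in brain. From E14.5 to P90 it was 0.06, 0.38, 0.15 and -0.03 on 1434520_at. On 1424709_at it was 0.16, 0.52, 0.23 and -0.41, with 0 of 8 values called. For D2 minus B6 in liver, 1 of the 3 Sc5d probe sets was called at E14.5, at P1 and at P90. It was each time the one called in brain, and the medians over the 3 were -0.08, -0.02 and -0.34. At P7 in liver, 2 of 3 were called, the second being 1434520_at (-1.16).

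**Figure D5:**
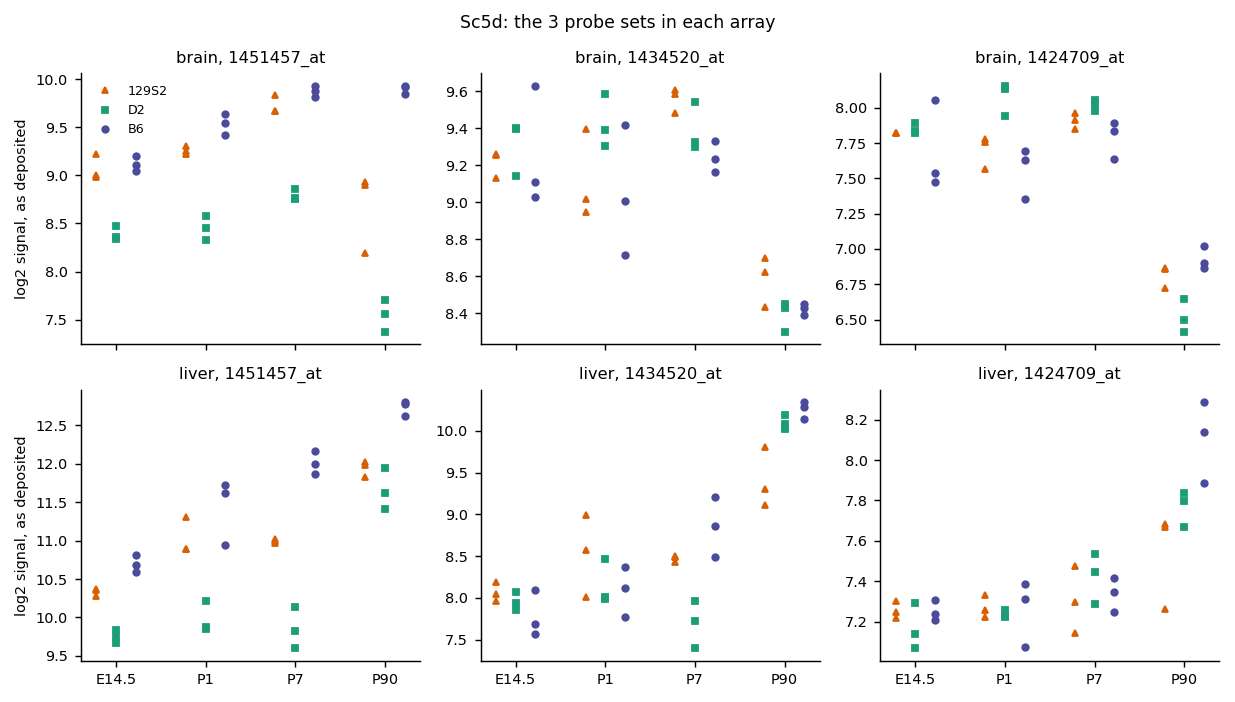
Sc5d in each array on its 3 probe sets (log2 signal as deposited) by stage, with brain in the upper row and liver in the lower, for 129S2 (triangles), D2 (squares) and B6 (circles). On 1451457_at the D2 arrays lie lowest at every stage in brain, while on the other 2 probe sets none of the D2 minus B6 differences in brain was called. Levels of different stages come from sets normalized apart.

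Whether the strain differences changed with stage was tested by limma as a strain by stage interaction. The stages had been normalized apart and P90 differed in its spike controls. A difference of scale between sets can therefore enter this test. In liver 13 member probe sets of all 8 genes were called, against 27.7% of all probe sets, with a largest difference of differences between 1.21 and 2.86. The highest were Idi1 (2.86 and 2.82), Msmo1 (2.79, adjusted p = 0.0013) and Sqle (2.28, adjusted p = 0.000264). For Idi1 this was D2 minus B6 at P1 against P7, so it includes the low B6 P1 liver replicate 1. Its size without that array is not given here. In brain 2 were called, both of Sc5d (1.63 on 1451457_at and 0.93 on 1424709_at), against 4.73% of all. Without B6 P1 liver replicate 1, 14 were called in liver.

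Genes with the most similar pattern were named over 24 group means and over deviations of arrays from their group mean, as correlations with the mean standardised profile of the 8 members. These are descriptions, since arrays of a set share their normalization and the group means their tissue and stage. Over the 24 group means Cyp51 came first of 15003 genes (r = 0.94), followed by Nsdhl (0.89), Rdh11 (0.87), Dhcr7 (0.85) and Ces4a (0.83). Over deviations within groups in 36 liver arrays the first were again Cyp51 (0.94), then Tubb6 (0.90), Nsdhl (0.88), Idh1 (0.87) and the squalene synthase gene Fdft1 (0.87). In 36 brain arrays the highest were Tmem41b (0.69), B3galnt1 (0.67), Zfp790 (0.66), Fbxo25 (0.65) and 1810014B01Rik (0.65). The members themselves had 0.70 (Lss) to 0.97 (Sqle) in liver and 0.24 (Insig1) to 0.74 (Msmo1) in brain by the same measure. Without B6 P1 liver replicate 1, the liver ranking over 35 arrays kept Cyp51 first at a lower correlation (0.83), followed by Gstm4 (0.77), Mvd (0.77), Nsdhl (0.75) and Atp6v0a1 (0.75), so that Tubb6, Idh1 and Fdft1 left the first 5, and the members had 0.65 (Lss) to 0.93 (Sqle). Over the 24 group means the first 4 genes were the same without it, with Cyp51 at 0.94, and the fifth was Srp72 (0.83).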

How the data were processed

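The deposited values were log2 signals of 45101 probe sets on 72 arrays, made by the authors with RMA per the submitters' processing notes; its version is not given in the sources used here. Whole values recurred between arrays of the same tissue and stage (2.55% to 4.13% shared) and hardly otherwise (0.00888% at most), so the 8 sets of 9 arrays were treated as normalized apart. Array medians ran from 5.03 to 7.30, and the number of arrays limits the precision. The highest correlation of 2 arrays was 0.998. After 64 controls were left out, 45037 probe sets were used, of which 34945 had 1 gene symbol, 932 several and 9160 none in GEO's platform annotation. The members and gene lists were chosen with earlier results of these data known. 

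Strains were compared by limma 3.58.1 (R 4.3.3) within each set, over probe sets whose highest strain mean exceeded the median of the set, with Benjamini-Hochberg adjustment over all of them. A call needed an adjusted p below 0.05 and 1.5-fold. Stages were compared after quantile normalization of the 36 arrays of a tissue and tissues after that of 72 arrays, by size alone, at 2-fold in each strain. The interaction was limma's F test on 6 strain by stage terms over 36 arrays. A gene's representative was its probe set with the highest mean. All members were named, with list genes that were called or 2-fold apart and the 5 genes most like the members. The functions were tested on simulated data. The labels give no meaning to shared replicate numbers. Same-numbered arrays deviated together, with every correlation over 0.1, in 6 of 24 strain contrasts (all 3 in E14.5 liver, 129S2 against B6 in P1 brain and in P7 liver, D2 against B6 in P7 brain); there the blocked fit is given where it changes a call. Alternatives covered filter, scaling, fold minimum, variance model, probe set choice, block and left-out arrays; those for neighbouring stages, for tissues before P90 and for left-out arrays in the interaction and the likeness ranking were added after seeing the data. Figures were drawn with Python 3.11.15 and matplotlib 3.10.9.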

Additional observations from a re-analysis of the deposited data

Results flagged for a closer look

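The strain difference of 15 member probe sets differed between stages by limma's test of the strain by stage interaction, with adjusted p from 5.83e-06 to 0.0324. The values given are the largest difference of differences in log2 units. The scale can differ between stages, which were normalized apart, and such a difference can enter the test. In brain these were Sc5d with 1.63 on 1451457_at and 0.925 on 1424709_at. In liver the isoprenoid steps had 1.62 (Hmgcs1 1433444_at), 1.62 (1433445_x_at) and 1.70 (1433446_at), 2.86 (Idi1 1423804_a_at) and 2.82 (1451122_at), and 2.08 (Fdps). The squalene steps had 2.28 (Sqle), 1.41 (Lss 1420013_s_at) and 1.44 (Lss 1426913_at). The sterol steps had 2.79 (Msmo1), 1.47 (Sc5d 1434520_at) and 1.21 (Sc5d 1451457_at), and Insig1 had 1.58. Without B6 P1 liver replicate 1, 14 member probe sets were called in liver in place of 13. The liver values of Hmgcs1, Idi1, Fdps and Insig1 set a difference from B6 at P1 against a later stage. They thus include this array, and their sizes without it are not given here. Of all probe sets 27.7% were called in liver and 4.73% in brain by the same test.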

How the results depend on the processing

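With 1 probe set per gene the members called between strains in liver were 31 (50 in the reported fit), with an interaction 8 in liver (13) and 1 in brain (2), apart between P90 and P7 6 in liver (12) and 1 in brain (6), between P90 and E14.5 4 in liver (7) and 0 in brain (1), between P7 and P1 in liver 0 (1), and between brain and liver 3 at E14.5 (5) and 2 at P7 (6). With the mean of a gene's probe sets they were 19 between strains in liver and 1 in brain (9), 4 and 2 for P90 against P7 in liver and brain, 3 for P90 against E14.5 and 0 for P7 against P1 in liver, and 1, 0, 1 and 5 between tissues from E14.5 to P90 (5, 3, 6 and 9). At 1.5-fold they were 9 for P90 and 1 for P1 against E14.5 in brain, 3 for P1 against E14.5 and 2 for P7 against P1 in liver, and 7 and 10 between tissues at P1 and P7. At 3-fold they were 0 for P90 against E14.5 and against P7 in brain, 5 for P90 against P7, 4 for P90 against E14.5 and 0 for P7 against P1 in liver, and 2, 1 and 3 between tissues at E14.5, P1 and P7. As deposited, 10 differed for P90 against E14.5 and 10 against P7 in brain and 1 for P1 against E14.5, while in liver 5 differed for P90 against P7 and 1 for P1 against E14.5, and 3 between tissues at E14.5. Median centring gave 3 between tissues at P7, quantile normalization of 72 arrays 2 for P90 against E14.5 in brain, array weights 4 interactions in brain, and no fold minimum 15 strain calls in brain. The cause was not tested, beyond the smaller number of features where genes replace probe sets.

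Leaving out 1 array at a time gave 9 to 10 strain calls in brain and 45 to 57 in liver, 2 to 3 interactions in brain and 12 to 15 in liver, 1 to 5 members for P7 against P1 in liver (5 without B6 P1 liver replicate 1) and 10 to 13 for P90 against P7 there. With the replicate number as a block, 10 strain calls were made in brain and 52 in liver, and 2 and 13 interactions, and all 59 strain calls were kept. The correlation of same-numbered arrays' deviations between strains ran from -0.513 to 0.814, with 33 of 72 over 0.1, and every one over 0.1 in 6 of 24 contrasts. In these 6 the block added 1 member call each to D2 minus B6 in E14.5 liver and P7 brain (2 in place of 1) and changed no other member call. One fit of all 36 arrays of a tissue kept 46 of the 59 strain calls, and 1 of the 6 between 129S2 and D2 in P90 liver. No call changed direction under an alternative that was run.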

Other observations

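Genes of cholesterol turnover and transport were followed over the same stages. Between E14.5 and P90 in brain, 3 of 6 differed 2-fold or more upward within all strains and 0 downward, namely Apoe, the main lipoprotein of the brain (4.61 ± 0.79), Cyp46a1, which makes the hydroxysterol that leaves the brain (2.50 ± 0.13), and Lcat (2.20 ± 0.10; log2 difference, mean ± SD over 3 strains). In liver 4 of 7 were higher and 0 lower, the bile acid enzymes Cyp27a1 (5.26) and Cyp7a1 (5.24), Lcat (3.14) and Apoe (2.14). Between the tissues at P90, Cyp46a1 was higher in brain (4.21) and so was Abcg1 (1.47), whereas Cyp7a1 (-6.87), Cyp27a1 (-5.66), Lcat (-4.16) and Abca1 (-2.12) were lower.

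In E14.5 brain Apoe was lower in 129S2 than in B6 (-1.44) and than in D2 (-1.18), both called by limma. In P7 liver Cyp7a1 was higher (1.83) and Abcg1 lower (-0.65) in 129S2 than in D2. In liver the brake gene Insig2 was 4.02 and the transporter gene Npc1 3.57 higher at P90 than at E14.5.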
